A study of Mus musculus with 36 samples.

Results

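Ogt and Mat2a are a pair of genes known for detained introns, that is, introns left in polyadenylated RNA that stays in the nucleus and can be spliced later. Their introns were taken as those that matched GENCODE M21 introns of Ogt or Mat2a in tables of 219945 introns from 31890 genes. This gave 27 introns, all 21 of the Ogt transcript Ogt-201 and 6 of the 8 of the Mat2a transcript Mat2a-201. The first and the last intron of Mat2a were not analysed here.

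Ogt encodes O-GlcNAc transferase, the enzyme that puts single N-acetylglucosamine sugars, made from glucose by the hexosamine pathway, on nuclear and cytoplasmic proteins. Mat2a encodes the catalytic subunit of the methionine adenosyltransferase of most cells outside the liver, which makes S-adenosylmethionine, the methyl donor of the cell. In cultured cells, splicing of the detained intron of Ogt is known to rise when O-GlcNAc falls. Splicing of the last Mat2a intron is known to rise when S-adenosylmethionine falls, through the RNA methyltransferase METTL16. In blood cells O-GlcNAc transferase is needed by stem and progenitor cells, and methylation of histones, DNA and RNA uses the product of Mat2a.

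Polyadenylated RNA was sequenced from 36 libraries of C57BL/6 mice, whose ages the labels do not give. The sorted blood cells were CMP, the common progenitors of myeloid cells, GMP, which give granulocytes and monocytes, and MEP, which give megakaryocytes and red cells. They came from 3 wild-type (WT) and 3 Zrsr2-deficient (knockout, KO) male littermates, each mouse giving 1 library per cell type. Mouse embryonic fibroblasts (MEF) came from 3 WT and 3 KO male embryos, numbered 4, 5 and 6 in each genotype. Bone marrow cells without lineage markers and with the receptor Kit (Lin-Kit+) of WT or KO mice were cultured ex vivo and transduced with a control hairpin RNA or with hairpin sh1 or sh10 against Zrsr1. Every group of these cells was made once in each of 2 experiments. Zrsr2 encodes a splicing factor for the minor, U12-type class of introns, and Zrsr1 is its close relative. All groups share the strain, the Lin-Kit+ cells differ from the other libraries by culture, transduction and library kit, and the promoter of the hairpins is not given in the labels.

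Ogt lies on the plus strand of chromosome X and its intron 4 spans chrX:101652209-101655623 in mm10, 3415 bases within the coding sequence. The last intron of Mat2a, intron 8, lies on the minus strand at chr6:72434396-72434980, 585 bases, and is shown because it is the known detained intron of that gene, although it was not analysed here. Sequences were read from the GENCODE M21 transcripts of build mm10, in which other transcripts cover the ends of both introns. In the 5′ ends the capitals mark the last 3 exon bases and the first 6 intron bases, and in the 3′ ends the last 3 intron bases.
Ogt intron 4, 5′ end: agaagccAAGGTAGGTgtttgctagaacac
Ogt intron 4, 3′ end: tttcattaaaccctcctAAGgcatgttatt
Mat2a intron 8, 5′ end: tcattgtCAGGTAAAGatggtaaaacctat
Mat2a intron 8, 3′ end: tatggacttgtatattcCAGggatctggat
Both 5′ splice sites match 7 of the 9 bases of the consensus CAGGTAAGT. Among 23152 listed introns with known sequence at this place, 39.1% matched at 7 or more bases and the median was 6. The sequence is known only where another transcript covers the intron end, so this set may not stand for all 219945 introns. Reading from the exon before it into Ogt intron 4 gives an in-frame stop at intron base 13, so that 181 of 1046 codons are open, 177 of them before the intron. For Mat2a intron 8 the stop is at intron base 2, after 362 of 395 codons.

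The 3′ untranslated region of Mat2a-201, 1497 bases long, is known for hairpins that METTL16 binds. It held 6 sites TACAGAGAA or TACAGAAAA, motifs of the METTL16 type, on the transcript strand. They are shown for this known binding, with 10 bases on either side and the motif in capitals.
Mat2a site 1: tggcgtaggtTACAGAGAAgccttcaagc
Mat2a site 2: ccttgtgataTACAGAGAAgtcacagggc
Mat2a site 3: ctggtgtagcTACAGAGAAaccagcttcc
Mat2a site 4: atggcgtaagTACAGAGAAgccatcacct
Mat2a site 5: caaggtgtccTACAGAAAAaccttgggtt
Mat2a site 6: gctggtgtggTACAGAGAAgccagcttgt
In the last 1497 bases of 1 protein-coding transcript per gene, 687 of 16913 genes (4.06%) held at least 1 such site, and only Mat2a held 6. The motifs were chosen because METTL16 is known to bind Mat2a, so the high count in Mat2a is no independent result. These matches describe letters, and binding was not measured.

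Each table gives 3 counts per intron: reads across its lower-coordinate and its higher-coordinate boundary (exon-intron reads) and spliced reads. Retention is 100 times the exon-intron reads, divided by their sum with 2 times the spliced reads, so that an intron in every transcript would be at 100%. The libraries held 30481450 to 84832431 spliced reads summed over introns (median 49905669). The retention formula applied to the reads summed over all introns gave a pooled retention per library. It was 2.42 to 2.90% in CMP, 1.89 to 2.65% in GMP, 2.12 to 2.60% in MEP, 1.57 to 2.74% in Lin-Kit+ cells and 1.51 to 1.70% in MEF. The summed spliced reads of Zrsr2 were 18.8 to 33.7 counts per 1000000 spliced reads of the library (CPM) in WT libraries and at most 1.49 in KO libraries, so the genotype labels held. The level of Zrsr1 was not analysed here. Summed marker genes set the sorted types apart, with GMP markers at 26022 to 31188 CPM in GMP against 2511 to 4498 in CMP, MEP markers at 4527 to 5584 in MEP against 1480 to 2049 in CMP, and fibroblast markers at 59761 to 86126 CPM in MEF against at most 144 elsewhere. Within these sums, Itga2b of the MEP list went the other way, at a mean of 22.9 CPM in MEP against 739 in CMP. Csf1r of the GMP list did so too, at 128 CPM in GMP against 154 in CMP. The other markers of these lists had higher means in their own type than in CMP. Car1, at 4065 CPM in MEP, was the largest part of the MEP sum there. Of the 5 progenitor markers, Kit was below 1 CPM in every MEF library and Myb had a mean of 0.69 there. Ptprc, Cd34 and Spi1 had means of 75.2, 37.6 and 35.9 CPM in MEF. These means were 71.9, 2.54 and 2.82 in MEP and 317, 438 and 83.3 in CMP. Macrophage markers, all 4 of 4 at a mean of at least 1 CPM in MEF, summed to 154 to 1594 CPM there against at most 39.1 in the sorted progenitors, where C1qa was below 1 CPM, and their part in the MEF results was not tested.

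Ogt intron 4 was retained at a mean of over 50% in every cell type. Over the 36 libraries its retention was 60.6% ± 10.7 (SD, n = 36), with a lowest value of 41.7%, a median of 59.9% and a highest of 81.5%. These values rest on 211 to 1700 exon-intron reads and 24 to 367 spliced reads per library, and the whole intron was covered in each. Within every library it stood at percentile 98.7 to 99.7 among the 97013 to 125824 introns with at least 20 reads.

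In CMP the retention of intron 4 was 70.2, 68.3 and 68.3% in the KO mice and 71.9, 74.2 and 55.4% in the WT mice. GMP had 41.7, 53.6 and 59.9% in KO and 56.3, 59.9 and 52.8% in WT. MEP had 58.5, 49.5 and 50.4% in KO and 68.8, 51.0 and 49.5% in WT. Apart from WT CMP 3 (55.4%) and WT MEP 1 (68.8%), every CMP library lay above every GMP and MEP library.
In MEF the values were 43.1, 57.8 and 44.6% in KO and 60.0, 51.9 and 46.0% in WT. With the control hairpin, Lin-Kit+ cells had 62.6 and 65.9% in KO and 67.8 and 56.8% in WT, and with sh1 70.0 and 55.6% in KO and 64.7 and 61.7% in WT. With sh10 they were 80.7 and 81.5% in KO and 73.8 and 78.8% in WT. The 4 sh10 libraries were the highest of the 12 Lin-Kit+ libraries. Among them KO lay above WT, with only 2 libraries per genotype, while KO and WT overlapped in every other cell type and hairpin group.

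**Figure D1:**
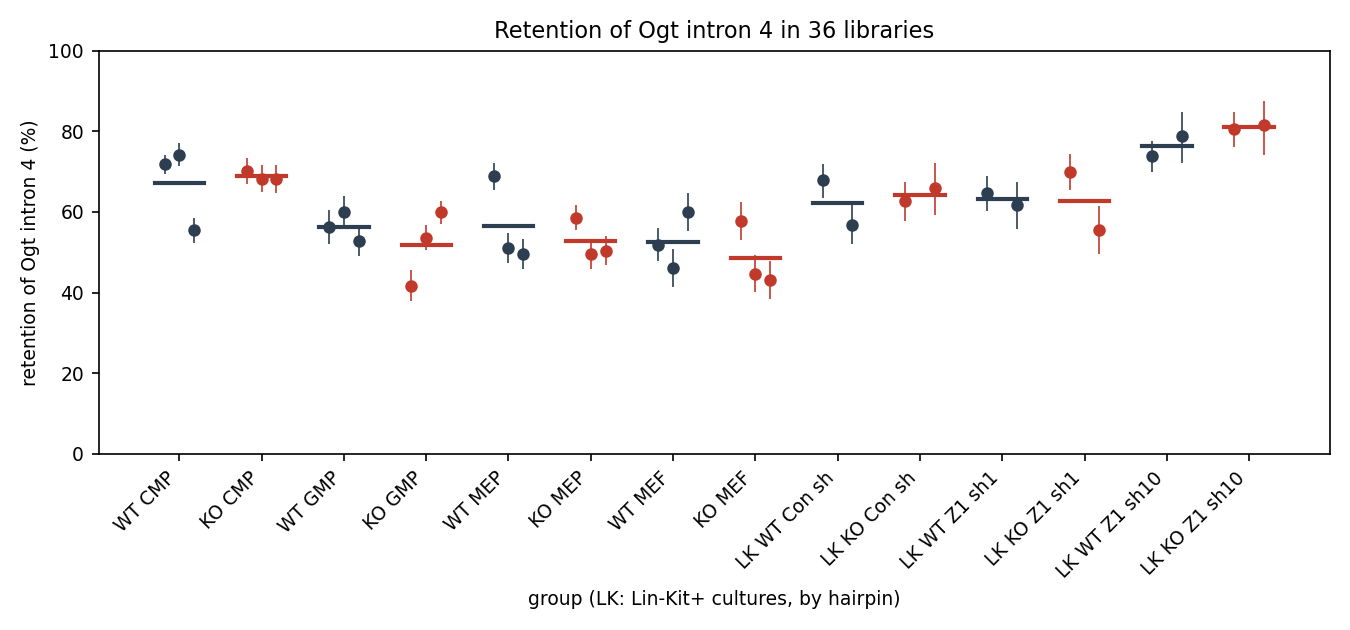
Retention of Ogt intron 4 in percent (y axis, from 0) in each of the 36 libraries, grouped by cell type, genotype and hairpin, with group means as horizontal lines and exact 95% binomial intervals (counting error only) as vertical lines. The 4 sh10 libraries lie at 73.8 to 81.5%, and KO and WT points overlap in all cell type and hairpin groups but sh10, with 2 libraries per genotype.

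The remaining 20 introns of Ogt were spliced almost fully. Their mean retention over the 36 libraries ran from 0.016% (intron 7) to 3.38% (intron 14) with a median of 0.573%, and no single library of any of them exceeded 8.42%. Intron 3, which at 7949 bases is longer than intron 4, was at 0.31%, and intron 5, the neighbour on the other side at 5511 bases, at 0.14%.

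**Figure D2:**
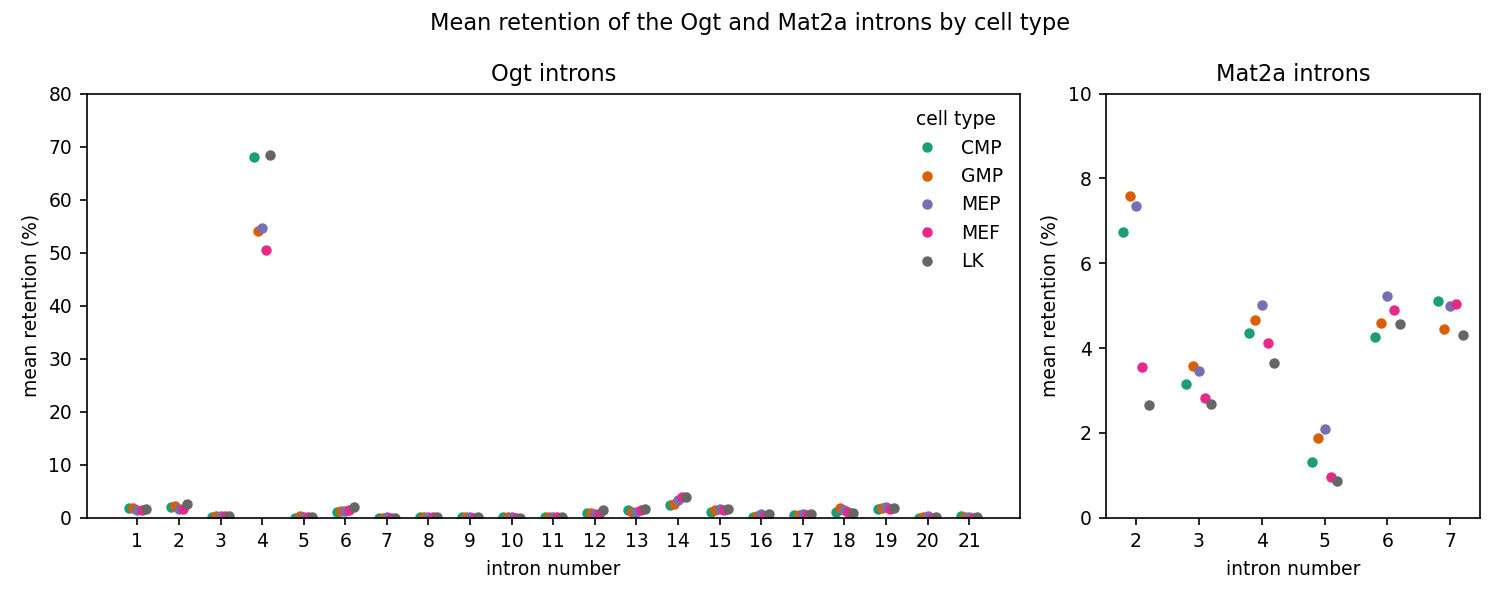
Retention in percent of each listed intron of Ogt and Mat2a (x axis, intron number in Ogt-201 and Mat2a-201; y axis, linear and on a different scale in the 2 panels), as the mean over the libraries of each cell type. Ogt intron 4, with means of 50.6 to 68.3%, stands apart from the 20 other Ogt introns and from the 6 Mat2a introns, whose means over all libraries are at most 3.38 and 5.09%.

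Summed over the 24 progenitor and MEF libraries, 49.2% of the exon-intron reads of intron 4 lay at the 5′ end, while the median of 28233 introns with at least 500 such reads was 43.4%. In Lin-Kit+ cells the 5′ share was 36.7%, below the median of 42.1% over 6755 introns. The upper 95% exact binomial limit was under 50% in 12 of 12 Lin-Kit+ libraries, and also in 2 of 6 CMP, 1 of 6 GMP, 1 of 6 MEP and 2 of 6 MEF libraries. The share was under that library's own share over all introns in 9 of 12 Lin-Kit+, 2 of 6 MEF and 0 of 18 progenitor libraries. Annotated transcripts bear on these ends, since Ogt-204, Ogt-205, Ogt-206 and Ogt-207 end within intron 4 and Ogt-203 starts in its last part, and reads of such transcripts are counted as exon-intron reads. Their part in the retention was not tested. Of the 8 other Ogt introns with at least 500 exon-intron reads in all, 5 had under 10% of them at the 5′ end and 1, intron 18, had 93.8%, so most of their exon-intron reads came from 1 boundary.

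Retention of intron 4 was higher in CMP than in GMP and MEP in each of the 6 mice. The means were 68.0% ± 6.58 in CMP, 54.0% ± 6.73 in GMP and 54.6% ± 7.76 in MEP (SD, n = 6 mice of both genotypes). GMP lay 14.0 ± 8.63 percentage points below CMP and MEP 13.4 ± 7.90 below it, each lower in 6 of 6 mice. The exact two-sided sign-flip permutation test over the 6 mice gave p = 0.03125 for each, the smallest value that 6 mice allow, and 0.098 after Benjamini-Hochberg adjustment over 25 tests of this kind, so neither passed a threshold of 0.05 once adjusted. MEP and GMP differed by 0.57 points (exact p = 0.938). The tests over both genotypes were chosen after the values were seen. Beside this difference, the pooled retention over all introns was also higher in CMP than in GMP in 5 of 6 mice and higher than in MEP in 6 of 6. Its part in the result was not tested.

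Split into its 2 kinds of reads, the difference lay in the unspliced reads. Unspliced reads, as the mean of both boundaries, were 9.48 ± 1.63 CPM in CMP, 5.20 ± 1.37 in GMP and 5.35 ± 1.53 in MEP (n = 6). Spliced reads of intron 4 were 4.42 ± 0.87, 4.36 ± 0.999 and 4.33 ± 0.71 CPM, and their differences from CMP had exact p-values of 0.938 and 0.844. The other 20 Ogt introns had a mean of 18.6 ± 1.39 CPM of spliced reads per intron in CMP, 11.1 ± 1.92 in GMP and 11.1 ± 2.04 in MEP, lower than CMP in 6 of 6 mice in both.
Spliced reads of intron 4 were therefore 23.9% ± 5.71 of the mean of the other introns in CMP, 39.4% ± 6.28 in GMP and 39.8% ± 8.15 in MEP, higher than CMP in 6 of 6 mice in both. These exact tests too had p = 0.03125, adjusted 0.098. With reads scaled by the trimmed mean of M values (TMM) the small differences in spliced reads changed sign, to 0.28 CPM for GMP and 0.35 for MEP. On either side of intron 4 the spliced reads were lower in GMP and MEP than in CMP, with introns 1 to 3 at 16.3, 10.3 and 10.4 and introns 5 to 21 at 19.04, 11.24 and 11.26 CPM in CMP, GMP and MEP.

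**Figure D3:**
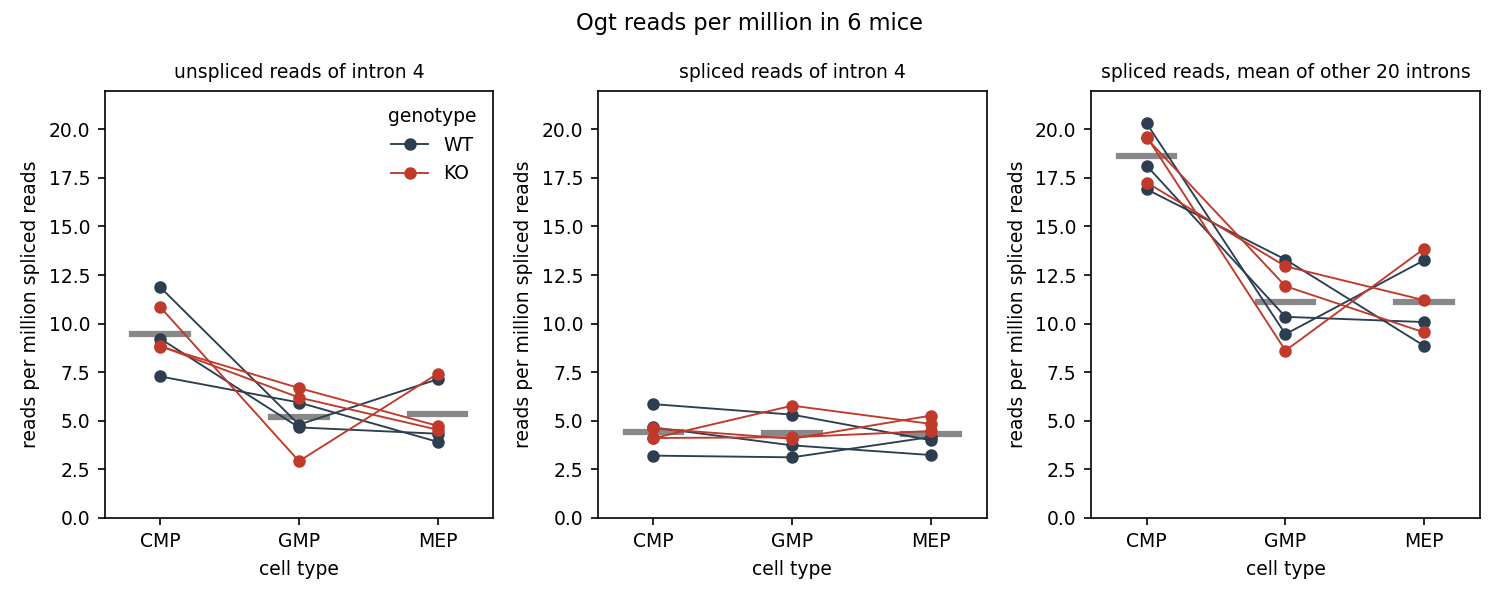
Unspliced reads of Ogt intron 4, spliced reads of intron 4 and the mean of the spliced reads of the other 20 Ogt introns, in CPM (y axis), in each progenitor library by cell type, with thin lines joining the libraries of 1 mouse and grey bars at the means of 6 mice. Unspliced reads and the other introns are highest in CMP, at 9.48 and 18.6, while spliced reads of intron 4 lie at 4.33 to 4.42 in all 3 progenitor types.

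MEF showed the lowest retention, 50.6% ± 7.14 (SD, n = 6), with 3.57 ± 0.57 CPM of unspliced and 3.49 ± 0.50 CPM of spliced reads of intron 4 and 7.74 ± 0.30 CPM for the other introns. Lin-Kit+ cells were at 68.3% ± 8.84 (SD, n = 12), which includes the 4 sh10 libraries at 78.7% ± 3.44. Without these the mean was 63.1% ± 5.05 (n = 8), a mean added after the values were seen. By their means the cell types ran from CMP through Lin-Kit+ cells without sh10, MEP and GMP to MEF, and with sh10 the Lin-Kit+ cells stood beside CMP. The means of neighbours in this order differed by less than 1 SD of either, except those of Lin-Kit+ cells and MEP, and the ranges of all neighbours overlapped. Lin-Kit+ libraries came from another kit and a culture, so cell type and preparation cannot be told apart there.

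Across all introns, the ratio of exon-intron to spliced reads was tested with edgeR's diffSpliceDGE, with Benjamini-Hochberg adjustment over all introns tested. Sizes are log2 differences of (exon-intron + 0.5) / (spliced + 0.5) between groups, with standard errors (SE) from limma. In WT alone, intron 4 was at -0.70 ± 0.42 (SE) in GMP against CMP (adjusted p = 0.774) and at -0.67 ± 0.42 in MEP against CMP (adjusted p = 0.498), and MEP against GMP was at 0.02. None of the 18 Ogt and Mat2a introns tested (12 and 6) was called in these 3 comparisons, in which 0.0824%, 0.664% and 0.496% of 60675 introns were.
Over both genotypes, MEP against CMP gave -0.83 ± 0.30 with an adjusted p of 0.0423 by edgeR, where 3.31% of introns were called, and limma's adjusted p was 0.208. GMP against CMP gave -0.87 ± 0.30 with an adjusted p of 0.0909, where 0.470% were called. The call in MEP was lost by limma and in 9 of the 12 fits that left out 1 library (adjusted p of 0.0741 to 0.139), and held without KO MEP 1 (0.0244), WT MEP 1 (0.00732) or WT CMP 3 (0.0105). Without WT CMP 3, GMP against CMP was called as well, at -1.06 (adjusted p = 0.0269).

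No difference of intron 4 between KO and WT passed the test. The KO minus WT differences of the log2 ratio were 0.08 ± 0.42 in CMP, -0.26 ± 0.42 in GMP, -0.23 ± 0.42 in MEP and -0.24 ± 0.36 in MEF (SE, n = 3 per group), with adjusted p-values of 0.999 to 1 by edgeR's diffSpliceDGE. No other Ogt or Mat2a intron was called, with 18 tested in each progenitor type and 13 in MEF (7 and 6). Over all introns 0.00659% in CMP, 0.00824% in GMP and 0.00494% in MEP were called. In MEF 0% of 32197 introns were called, with 1373 at an unadjusted p under 0.05 and 0 called by limma. The SE of 0.42 for intron 4 rests on 3 mice per group and on a spread that limma estimated over all 18 progenitor libraries. It is therefore not the spread of the 3 KO and 3 WT libraries of 1 cell type.

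In Lin-Kit+ cells no Ogt or Mat2a intron was called for the genotype or the hairpins. KO minus WT of intron 4 was 0.11 ± 0.82 with the control hairpin and 0.19 ± 0.58 with the Zrsr1 hairpins, and the mean of both hairpins minus control was 0.50 ± 0.71 in WT and 0.58 ± 0.71 in KO (SE; adjusted p of 0.997 to 1). The share of all 44467 introns called was 0% in each of these 4 comparisons by edgeR and by limma, with 587 introns (KO minus WT, control hairpin), 565 (hairpins minus control, WT), 1191 (hairpins minus control, KO) and 1306 (KO minus WT, Zrsr1 hairpins) at an unadjusted p under 0.05. With the experiment as a block, 1, 1, 0 and 19 introns were called, no Ogt or Mat2a intron among them.

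Retention of intron 4 was higher with sh10 than with the control hairpin in every pair, a comparison chosen after the values were seen. Within genotype and experiment, sh10 exceeded the control hairpin by 15.4 ± 6.82 percentage points of retention (SD of the differences), higher in 4 of 4 pairs (exact two-sided sign-flip p = 0.125, the smallest that 4 pairs allow; adjusted 0.284). The 4 sh10 libraries spanned 73.8 to 81.5% and the 8 control and sh1 libraries 55.6 to 70.0%, without overlap. The share of all introns that separate in this way is not given here, so the separation is a description only. For sh1 the difference from control was -0.33 points (exact p = 1). Spliced reads of intron 4 were 1.65 CPM with sh10 against 3.02 with control, lower in 3 of 4 pairs (exact p = 0.25), and unspliced reads 5.72 against 5.20, higher in 2 of 4.
Relative to the other Ogt introns, spliced reads of intron 4 were 16.4% with sh10 against 35.0% with control, lower in 4 of 4 pairs (exact p = 0.125). Across all introns, sh10 minus control was 0.95 ± 0.82 in WT and 1.24 ± 0.82 in KO (SE), each with an adjusted p of 1.0 by edgeR. The cells differed by hairpin too. Summed mature neutrophil markers were 9643 to 28485 CPM with sh10 against 3651 to 8510 over control and sh1, and MEP markers were 527 to 939 CPM with sh10 against 960 to 1350 with control. Most of this MEP sum was Itga2b, at a mean of 834 CPM in Lin-Kit+ cells, while Car1, Klf1 and Epor were at 1.68, 2.46 and 2.65. Itga2b was lower in MEP than in CMP, so the sum is no measure of MEP cells here. Summed GMP markers were 2132 to 5195 CPM with sh10, 3044 to 5091 with sh1 and 5549 to 7091 with control. Summed macrophage markers were 779 to 2094 CPM with sh10, 385 to 931 with control and 893 to 2074 with sh1. All 6 neutrophil, 7 MEP, 7 GMP and 4 macrophage markers had a mean of at least 1 CPM in these cells, and their part in the result was not tested.

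The 6 listed Mat2a introns were retained at low levels. Over the 36 libraries, mean retention was 5.09% for intron 2, 3.06% for intron 3, 4.24% for intron 4, 1.33% for intron 5, 4.68% for intron 6 and 4.70% for intron 7, and no library passed 9.73%. In 5 of 6 the mean exceeded 3%, which 1 of the 20 Ogt introns other than intron 4 did. The introns are short, 76 to 465 bases.

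Mat2a introns 2 and 5 were lower in MEF than in progenitors. Intron 2, at chr6:72437118-72437370, was at 3.33, 3.66 and 3.55% in WT MEF. In WT CMP it was at 8.20, 8.53 and 4.35%, in WT GMP at 9.61, 7.002 and 9.73%, and in WT MEP at 8.99, 5.51 and 7.57%. No WT MEF value reached the lowest progenitor value. On the log2 ratio this was -1.15 ± 0.29 (SE) with an adjusted p of 4.5e-05 by edgeR and 0.00824 by limma. KO MEF, which this test did not use, were at 4.10, 3.04 and 3.70%, against 5.12 to 8.79% in KO progenitors.
Intron 5, at chr6:72436030-72436196, was at 0.53, 0.69 and 0.95% in WT MEF, 1.23, 1.19 and 0.83% in WT CMP, 1.75, 1.22 and 3.17% in WT GMP and 2.61, 1.63 and 1.58% in WT MEP, so that MEF and CMP overlapped. The difference was -1.12 ± 0.38 (adjusted p = 0.00781 by edgeR, 0.0438 by limma). It was no longer called without WT MEF 5 (adjusted p = 0.107) or WT MEF 6 (0.054), or from 5′ reads alone (0.0646).
The other 4 Mat2a introns and the 12 Ogt introns tested were not called, intron 4 of Ogt being at -0.45 ± 0.34 (adjusted p = 0.284). In this comparison 14.6% of 70827 introns were called and the median over all introns was -0.42, so 2 of 18 is near the background. The lower pooled retention over all introns in MEF moves with it, and its part was not tested. Between genotypes, intron 5 was at 1.34, 1.59 and 1.68% in KO CMP, all above the 3 WT CMP values, and was not called. The median log2 difference over all introns was 0.08 in that comparison. How many introns separate likewise is not given here, so no genotype effect is read from it. In Lin-Kit+ cells intron 2 ran from 0 to 5.51%, at 0% in both KO libraries of experiment 2 with a Zrsr1 hairpin and at 2.93% in KO with control. These are single libraries of low depth for Mat2a. Its spliced reads summed over introns were 1351 with sh10, 1700 with sh1 and 2070 with control.

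Levels of the genes were taken as spliced reads summed over their introns, in CPM of all such reads. In bulk samples, fewer cells of a type and less RNA per cell cannot be told apart. Ogt was at 390.2, 343.4 and 388.4 CPM in KO CMP and 404.0, 359.7 and 338.6 in WT CMP. It was lower in GMP, at 173.2, 260.4 and 238.8 CPM in KO and 189.6, 206.5 and 266.9 in WT, and in MEP, at 277.9, 225.1 and 192.2 in KO and 264.0, 202.3 and 178.1 in WT. No CMP library overlapped with GMP or MEP. MEF had 146.5, 152.1 and 162.8 CPM in KO and 157.3, 161.2 and 152.1 in WT, the narrowest spread of the cell types.
In WT, edgeR's quasi-likelihood test gave a log2 difference of -0.60 ± 0.16 (SE; adjusted p = 0.0124) for GMP against CMP and -0.64 ± 0.16 (adjusted p = 0.00379) for MEP against CMP, a level 1.52 and 1.56 times lower. MEP and GMP differed by -0.04 ± 0.16 (adjusted p = 0.877). MEF against the mean of the 3 progenitor types was -0.57 ± 0.13 (adjusted p = 5.2e-04). The call in GMP was lost without WT GMP 1 (adjusted p = 0.0676) or WT GMP 2 (0.0517).

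Mat2a followed another order. It was at 274.7, 276.7 and 264.0 CPM in KO CMP and 289.3, 278.8 and 255.1 in WT CMP. MEP were highest, at 312.2, 301.4 and 309.8 in KO and 295.1, 309.9 and 276.0 in WT, and GMP at 208.5, 228.2 and 247.2 in KO and 221.1, 201.7 and 219.4 in WT were the lowest progenitors, without overlap with CMP or MEP, which overlapped with each other. MEF had 110.7, 94.5 and 107.0 CPM in KO and 106.8, 106.1 and 113.7 in WT.
The WT differences were -0.22 ± 0.07 for GMP against CMP (adjusted p = 0.0255), 0.24 ± 0.07 for MEP against CMP (0.0094), 0.46 ± 0.07 for MEP against GMP (3.2e-05) and -1.09 ± 0.07 for MEF against progenitors (4e-11), by edgeR. The first call was lost without WT CMP 1 (adjusted p = 0.0842), WT CMP 2 (0.0573), WT GMP 2 (0.111) or WT GMP 3 (0.055), and the second without WT MEP 2 (0.0671). These calls stand in comparisons in which many genes moved: 24.8% of 17563 genes in GMP against CMP (12.5% higher, 12.3% lower), 46.7% in MEP against CMP (21.2% and 25.5%), 45.8% in MEP against GMP (21.1% and 24.8%) and 68.4% in MEF against progenitors (38.9% and 29.4%).

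Per intron, which allows a comparison between the genes, Mat2a exceeded Ogt in every cell type. Mat2a was at 45.5 CPM per intron in CMP, 36.8 in GMP, 50.1 in MEP, 17.7 in MEF and 12.4 in Lin-Kit+ cells, and Ogt at 17.7, 10.6, 10.6, 7.40 and 8.64. Among the genes, Mat2a stood at percentile 92.6 to 98.4 and Ogt at 88.6 to 94.9 of this level, by the means of the 5 cell types. In Lin-Kit+ cells both differed by experiment, Mat2a with 99.6 ± 7.19 CPM in experiment 1 and 49.4 ± 9.78 in experiment 2 (n = 6 each), Ogt with 222.6 ± 27.3 and 140.4 ± 10.7. The ranges of the 2 experiments did not overlap for either gene, so a comparison of Lin-Kit+ levels with other cells depends on the experiment.

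**Figure D4:**
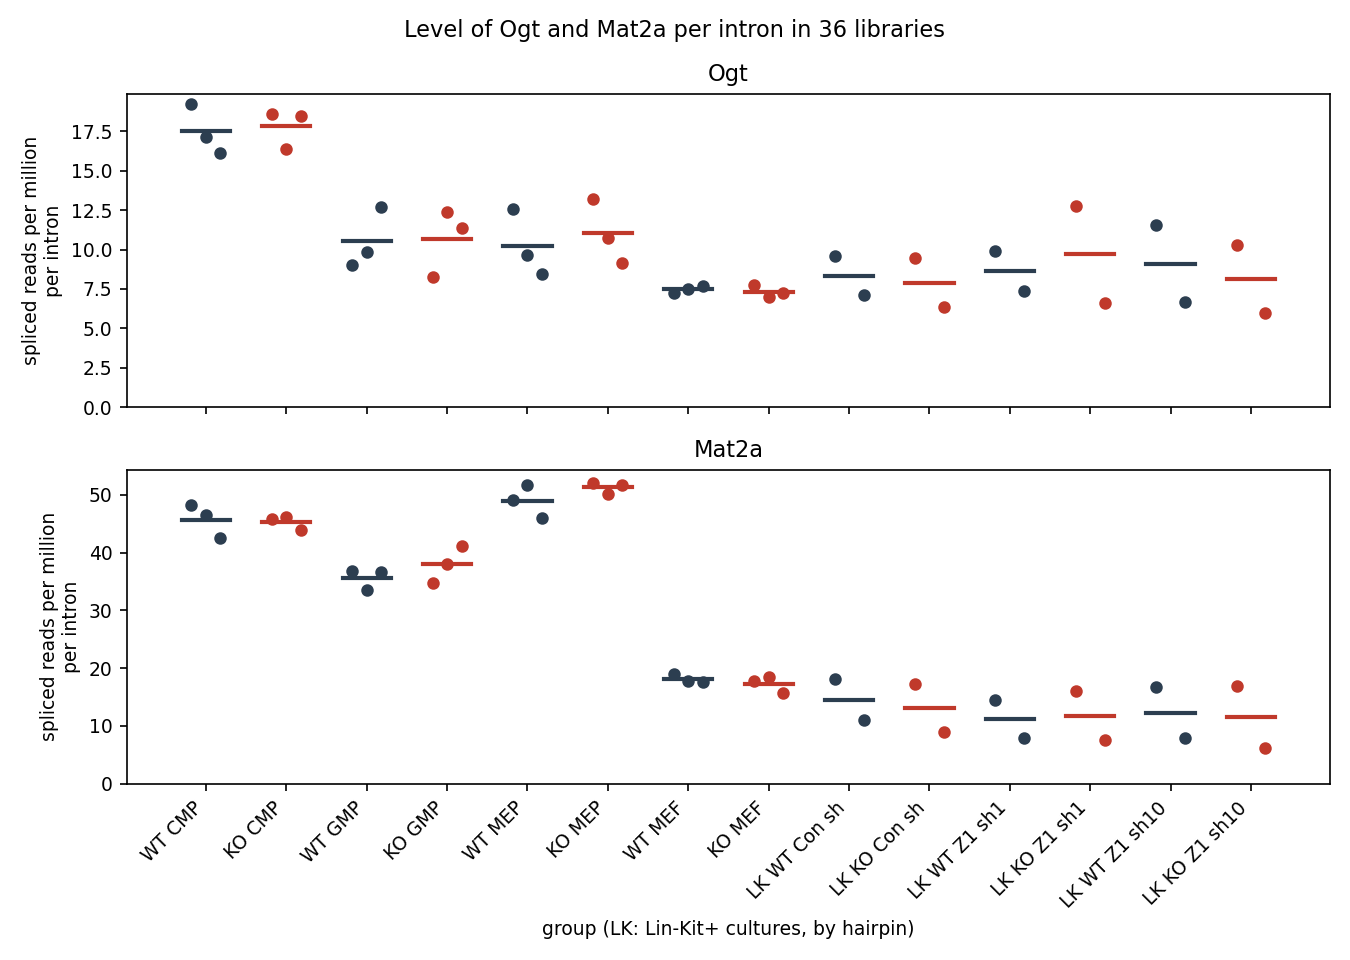
Summed spliced reads of Ogt and Mat2a per intron, in CPM (y axis), in each library by cell type, genotype and hairpin, with group means as horizontal lines. Over both genotypes Ogt is highest in CMP at 17.7 and Mat2a in MEP at 50.1.

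Neither gene was called for Zrsr2 or the hairpins. For Ogt, KO minus WT was at 0.01 (CMP), 0.02 (GMP) and 0.08 (MEP; SE 0.16 each) and -0.01 ± 0.08 in MEF, and for Mat2a at -0.02, 0.09 and 0.04 (SE 0.07 each) and -0.05 ± 0.09. The adjusted p-values by edgeR were 0.997 to 1. Called genes were 0.0228% in CMP, 0.0171% in GMP, 0.0456% in MEP and 0% of 16735 in MEF, where 265 were at an unadjusted p under 0.05 and DESeq2 called 12. Zrsr2 itself was not called in MEF (adjusted p = 0.9999) although its spliced reads were nearly absent from the KO libraries.
In Lin-Kit+ cells Ogt differed by -0.02 ± 0.30 and Mat2a by -0.10 ± 0.49 between KO and WT with the control hairpin. The hairpins minus control were at 0.18 ± 0.26 in WT and 0.24 ± 0.27 in KO for Ogt and at -0.22 ± 0.42 and -0.11 ± 0.43 for Mat2a (SE; adjusted p of 0.9002 to 0.998). The share of genes called was 0% in each of the 4 comparisons by edgeR, with 158, 1325, 1285 and 346 of 17828 genes at an unadjusted p under 0.05 and 24, 378, 379 and 25 called by DESeq2. Without a block, edgeR thus did not call Zrsr2 between KO and WT in Lin-Kit+ cells either. Its level was 18.8 to 25.3 CPM in WT and 0.0869 to 1.49 in KO libraries, so even the targeted gene was missed there. With the experiment as a block, 1, 1560, 1604 and 5 genes were called, neither Ogt nor Mat2a among them.

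**Figure D5:**
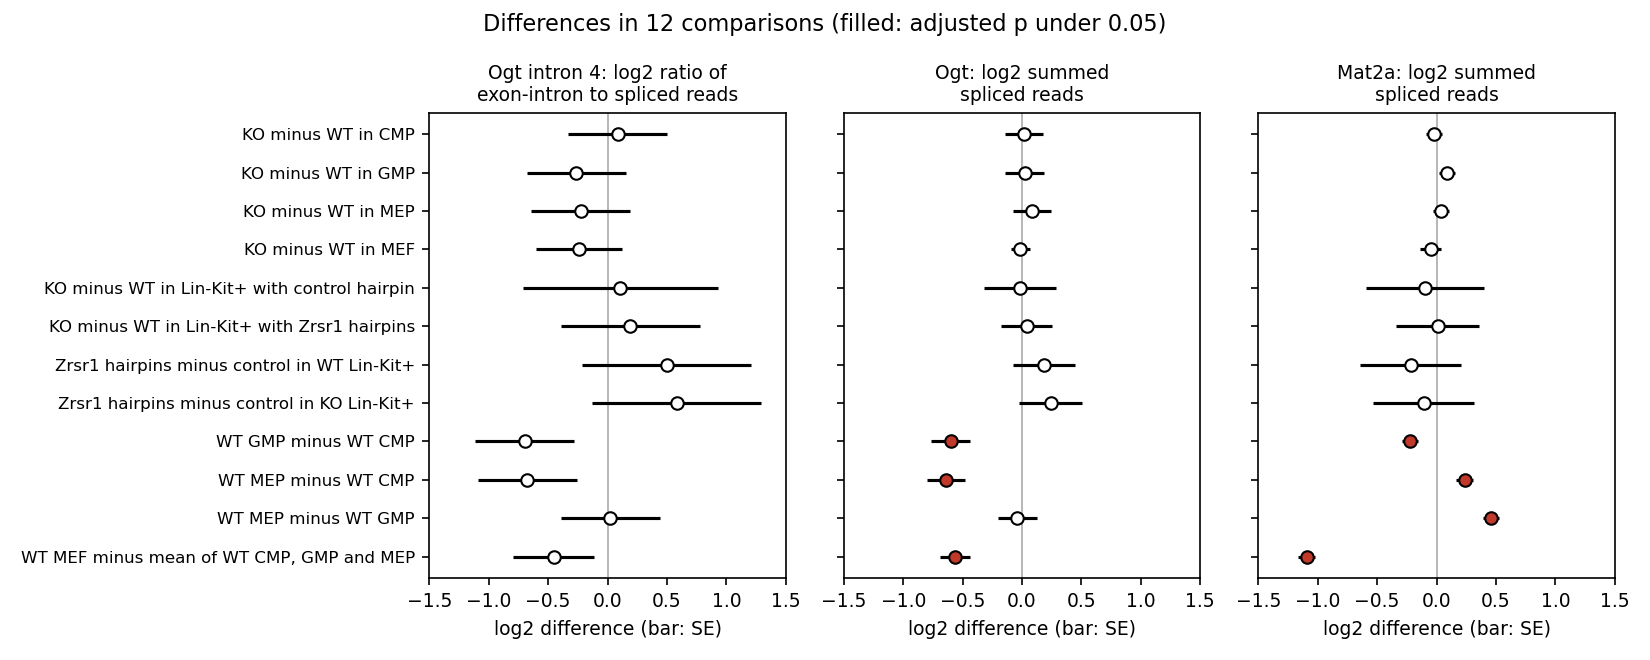
Differences between groups in the log2 ratio of exon-intron to spliced reads of Ogt intron 4 and in the log2 levels of Ogt and Mat2a (x axes, log2 difference; bars, SE) for 12 comparisons, filled where the adjusted p was under 0.05. Intron 4 lies at -0.70 in WT GMP against CMP with no filled point, while the Ogt level is filled in 3 and the Mat2a level in 4 comparisons of cell types and neither in one of genotypes or hairpins.

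Around Ogt, the hexosamine and O-GlcNAc list had 14 genes with a value, Ogt included. In WT GMP against CMP, 5 were higher and 4 lower, with a median of 0.20 against 0 over all genes, of which 12.5% were higher and 12.3% lower. Gpi1, the glycolytic isomerase that makes the fructose-phosphate entering the pathway, rose by 1.25 ± 0.06 (SE; log2; adjusted p = 6.03e-10) and Gfpt2, a form of its first enzyme, fell by 3.19 ± 0.49 (adjusted p = 1.34e-04). Pgm3, a phosphomutase of the pathway, rose by 0.995 ± 0.113 (adjusted p = 6.56e-06). Oga, which removes O-GlcNAc and is listed as Mgea5, fell by 0.30 (adjusted p = 0.0149), the same direction as Ogt.
In WT MEP against CMP, 4 of the 14 were higher and 7 lower, with a median of -0.42 against -0.05 over all genes, of which 21.2% were higher and 25.5% lower. Gfpt1, the main first enzyme, was higher by 0.82 (adjusted p = 9.25e-05) and Uap1, which makes the UDP sugar, by 1.05 ± 0.08 (1.9e-08). Nagk, which salvages N-acetylglucosamine, fell by 2.27 ± 0.18 (3.46e-08), Renbp, which interconverts related sugars, by 1.82 ± 0.16 (8.11e-08), and Oga by 0.31 (0.00711). Ogt and Oga were thus both lower in GMP and MEP than in CMP while the enzymes before them moved in both directions. Against GMP, MEP had 5 higher and 6 lower, beside 21.1% and 24.8% of all genes.
In MEF against progenitors 10 were higher and 3 lower, with a median of 1.005 against 0.17 over all genes, of which 38.9% were higher and 29.4% lower. Nagk was higher by 3.03 ± 0.11 (adjusted p = 1.15e-14) and Eogt, the O-GlcNAc transferase of the secretory pathway, by 2.402 ± 0.111 (3.02e-13), while Oga was at -0.03 (0.825). All these p-values are from edgeR's quasi-likelihood test.

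The S-adenosylmethionine and methionine list had 21 genes tested, Mat2a included, of 24. In WT GMP against CMP 7 were higher and 1, Mat2a, lower, with a median of 0.12, beside 12.5% and 12.3% of all genes. In WT MEP against CMP 13 were higher and 1 lower, with a median of 0.51 against -0.05 over all genes, of which 21.2% were higher and 25.5% lower. Mat2b, the regulatory subunit that binds the Mat2a product, was higher by 0.32 (adjusted p = 6.72e-04), Srm, which makes spermidine from decarboxylated S-adenosylmethionine, by 1.204 ± 0.121 (4.85e-07), Mtrr, which keeps methionine synthase active, by 0.88 ± 0.10 (1.47e-06) and Slc7a5, a transporter of large neutral amino acids, by 0.80 ± 0.09 (1.97e-06).
Against GMP, MEP had 13 higher and 2 lower, beside 21.1% and 24.8% of all genes. In MEF 13 of the 21 were lower and 6 higher, with a median of -0.60, beside 29.4% and 38.9% of all genes. Mat2b fell by 0.78 there (adjusted p = 1.39e-10), Amd1, which decarboxylates S-adenosylmethionine, fell by 1.90 ± 0.09 (7.16e-13) and Sms, spermine synthase, fell by 2.02 ± 0.12 (1.18e-11).

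Of 12 factors tied to detained introns and their RNA, 11 had a value. Mettl16, known to bind hairpins in the Mat2a 3′ untranslated region, was at 0.06 (adjusted p = 0.803) in GMP against CMP, higher by 0.78 ± 0.14 in MEP (1.54e-04) and lower in MEF, at -1.06 (3.95e-08). Ythdc1, a nuclear reader of methylated RNA, fell by 0.26 ± 0.09 in GMP (0.0365), by 0.48 in MEP (1.78e-04) and by 0.65 in MEF (9.41e-08). Mtrex, a helicase of nuclear RNA decay, was higher by 0.46 ± 0.07 in MEP (6.51e-05) and fell by 0.93 ± 0.08 in MEF (1.29e-09). In all, 0 were higher and 3 lower in GMP against CMP, 7 and 3 in MEP against CMP, 7 and 2 in MEP against GMP, and 0 and 10 in MEF. Over all genes the shares higher and lower were 12.5% and 12.3%, 21.2% and 25.5%, 21.1% and 24.8%, and 38.9% and 29.4% in the same order.
Proteins that bind O-GlcNAc transferase or lie in its complexes were all tested, 13 of 13. Of these, 1 was higher and 1 lower in GMP against CMP, 4 and 5 in MEP against CMP, 4 and 3 in MEP against GMP and 1 and 8 in MEF, to be read beside the same shares over all genes. Hcfc1, the host cell factor that the transferase cleaves, was higher by 0.53 ± 0.07 in MEP against CMP (1.38e-05) and fell by 1.17 ± 0.08 in MEF (4.93e-11). Trak2, a mitochondrial transport adaptor, was higher by 1.31 ± 0.12 in MEP (1.08e-07). By edgeR's quasi-likelihood test without a block, 0 genes of the 4 lists were called for the genotype in CMP, GMP, MEP or MEF, where 0 to 0.0456% of all genes were, or in the 4 Lin-Kit+ comparisons with sh1 and sh10 pooled, where 0% were. The highest count of list genes at an unadjusted p under 0.05 in these comparisons was 5 of 14. It was in the hexosamine and O-GlcNAc list, for the Zrsr1 hairpins minus control in WT Lin-Kit+ cells. Over all genes, 1325 of 17828 were under 0.05 in that comparison. The lists were not counted by DESeq2, with the block or for each hairpin alone.

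The introns whose log2 ratio most resembled that of Ogt intron 4 over the 24 progenitor and MEF libraries, among 6149 introns considered, lay in Bnip2 (Pearson r = 0.81), Ahsa2 (0.81), Mfsd14a (0.81), Foxred1 (0.79) and Sec11c (0.79). Their mean retention was highest in CMP, where Foxred1 had 25.3% and Bnip2 14.0%, against 14.9% and 5.0% in MEF. Among 5881 genes, the levels most like Ogt included those of Kdm3a (0.97), Fam160b1 (0.96), Ttc14 and Ddx6 (0.95 each), and those most like Mat2a of Msh6, Xrcc6, Tubgcp3, Noc2l and Fbxo3 (0.99 each). These correlations are over libraries that share cell type, mouse and depth, so they describe the order of the cell types and carry no test.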

How the data were processed

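Per the file headers, the authors' tables hold counts of reads at both boundaries of each intron and of spliced reads, the fraction of the intron covered, and a percent that equals the retention defined above. The submitters' processing notes name build mm10. No source used here names an aligner or counter. Strand was not stated, so overlapping genes cannot be told apart, and 1887 introns belong to more than 1 gene. A read that crosses several introns counts at each, so summed spliced counts exceed reads. No 2 of the 630 pairs of libraries shared more than 4.58% of their counts among 102371 introns, so each was counted as 1 sample.

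Introns were tested with edgeR 4.0.16 (diffSpliceDGE, introns that pass filterByExpr on both counts) and genes with its quasi-likelihood test and TMM scaling, in R 4.3.3, with limma 3.58.1 and DESeq2 1.42.0 as alternatives. Adjusted p-values are Benjamini-Hochberg over all features, with a threshold of 0.05. On data simulated with equal or unequal spread of both counts, 31.1% and 20.4% of the calls of the intron test were unchanged introns. This is more than its threshold allows. For limma these shares were 8.2% and 5.9%. It recovered 56% and 15% of the introns changed 4-fold, where the intron test recovered 92% in each case. Therefore limma's value stands beside intron calls. Intervals cover counting error only. Libraries count as replicates by their labels. Whether Lin-Kit+ experiments used separate mice is not stated, so p-values there cover only the spread among those libraries, which may be technical.

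The genes, lists and comparisons were chosen with earlier results of these data known. Introns are numbered by Ogt-201 and Mat2a-201. The naming rule asked for intron 4 of the protein-coding Ogt transcript with the most exons, which is intron 3 here (0.31% retained), and intron 4 of Ogt-201 enters by a mean retention over 10%. The rule also took introns called in a comparison and up to 4 genes per list and comparison with the smallest p. Oga, Gfpt1, Mat2b, Mettl16 and Ythdc1 were also named after their values were seen, for their place in the pathways. Of the genes the rule took, 2 are not reported here. The lists lack a value for Gnpnat1, Pabpn1, Mat1a, Bhmt and Bhmt2, not analysed here. The alternatives tried were limma, other pseudocounts, filters, each boundary alone, DESeq2, other scalings, the replicate block and leaving out each library.

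Libraries of 1 mouse are paired by design (18 pairs correlated at -0.379 to 0.398, median 0.142, over 5409 genes), Lin-Kit+ libraries by experiment, per the labels (0.762 to 0.855). Libraries of KO and WT with the same number correlated at over 0.1 in 3 of 3 pairs in CMP (0.156 to 0.252) and in MEP (0.336 to 0.393), and in 2 of 3 pairs in GMP and MEF.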

Additional observations from a re-analysis of the deposited data

How the results depend on the processing

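Over 70 results, 770 alternatives were computed, of which 661 kept the direction and the side of the threshold, 85 changed sign, 23 lost a call and 1 gained one, and 29 results kept both under every alternative run. Each sign change was in a difference that had not passed its test. With the median intron count per gene, KO minus WT of Ogt was -0.0090 in CMP and -0.036 with the Zrsr1 hairpins, and of Mat2a -0.00025 with the Zrsr1 hairpins. Without a filter on low counts, Ogt in WT MEP minus GMP was 0.0061. From 3′ reads alone, Ogt intron 4 was at -0.045 in WT MEP minus GMP and its retention with sh1 minus control at 0.775 points. From 5′ reads alone, intron 4 was at -0.16 (KO minus WT, control hairpin) and -0.088 (sh1 minus control, WT), and unspliced reads with sh1 minus control were at -0.411 CPM. With TMM scaling, spliced reads of intron 4 differed by 0.281 (GMP minus CMP), 0.352 (MEP minus CMP), 0.0711 (MEP minus GMP) and 0.191 CPM (sh1 minus control). The call of intron 4 in MEP minus CMP over both genotypes was lost at the same size by limma (-0.83), without the filter (-0.83), and from 5′ (-0.83) or 3′ reads alone (-0.82). The cause was not tested in any of these.

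With the experiment as a replicate block, Mat2a in KO minus WT with the Zrsr1 hairpins was at -0.015. Blocks by mouse, number or experiment changed no call of an Ogt or Mat2a result, intron 4 in MEP minus CMP over both genotypes having an adjusted p of 0.0395 with the mouse as block. Over all features, the block by number moved the called introns in KO minus WT of CMP from 4 to 7 and the called genes from 4 to 2, and the experiment block moved the Lin-Kit+ counts given above. By limma the called introns went from 5 to 2 (KO minus WT, GMP), 3 to 11 (MEP), 403 to 197 (WT MEP minus CMP), 285 to 157 and 2006 to 839 (GMP and MEP minus CMP over both genotypes). By DESeq2 the called genes in KO minus WT went from 4 to 50 in CMP, 3 to 21 in GMP, 8 to 79 in MEP and 0 to 12 in MEF, and from 0 to 24, 378, 379 and 25 in the Lin-Kit+ comparisons.

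Leaving out each library in turn gave these ranges where a sign or call changed. The log2 ratio of Ogt intron 4 ran from -0.29 to 0.31 (KO minus WT in CMP), -0.50 to 0.028 (GMP), -0.44 to 0.15 (MEP), -0.23 to 0.45 (Lin-Kit+, control hairpin) and -0.031 to 0.42 (Zrsr1 hairpins), from -0.35 to 0.23 in WT MEP minus GMP, from -1.06 to -0.73, -1.02 to -0.71 and -0.15 to 0.16 over both genotypes (GMP minus CMP, MEP minus CMP, MEP minus GMP), and from -0.30 to 0.38 and -0.52 to 0.37 for sh1 in WT and KO. Ogt levels ran from -0.046 to 0.094 (KO minus WT in CMP), -0.094 to 0.17 (GMP), -0.052 to 0.23 (MEP), -0.055 to 0.018 (MEF), -0.21 to 0.15 (control hairpin) and -0.17 to 0.20 (Zrsr1 hairpins), from -0.74 to -0.51 in WT GMP minus CMP and from -0.19 to 0.10 in WT MEP minus GMP. Mat2a levels ran from -0.079 to 0.021 (KO minus WT in CMP), -0.0013 to 0.099 (MEP), -0.099 to 0.015 (MEF), -0.49 to 0.24 (control hairpin) and -0.30 to 0.25 (Zrsr1 hairpins), from -0.30 to -0.19 and 0.18 to 0.31 in WT GMP and MEP minus CMP, and from -0.49 to 0.12 and -0.42 to 0.29 for the hairpins in WT and KO. By mouse or pair, retention of intron 4 ran from -2.67 to 2.59 points (MEP minus GMP) and -2.89 to 3.02 (sh1), unspliced reads from -0.724 to 0.583, -0.246 to 0.283 (sh1) and -0.233 to 1.11 CPM (sh10), and spliced reads from -0.409 to 0.111, -0.305 to 0.259 and -0.278 to 0.224 (GMP minus CMP, MEP minus CMP, MEP minus GMP) and -0.469 to 0.209 (sh1). The other introns ran from -1.01 to 0.932 CPM (MEP minus GMP), and spliced reads relative to them from -1.89 to 3.53 (MEP minus GMP) and -9.62 to 0.21 percentage points (sh1). Mat2a intron 5 in WT MEF minus progenitors ran from -1.33 to -0.92. In Lin-Kit+ cells the depth was low for intron 4, with 24 spliced reads in 1 library, and each group had 2 libraries.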
